A study of Mus musculus with 5 samples.

Results

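Fibulins and their partners in the elastic fibre were followed in undifferentiated mouse embryonic stem cells with and without Mkl2. The genes were taken from a named set of 10: the fibulins Efemp1, Efemp2, Fbln1, Fbln2 and Fbln5, elastin (Eln), the elastin-associated glycoprotein Emilin1, the microfibril protein Mfap2, and the crosslinking enzymes Lox and Loxl2. Each gene was read from its brightest array feature among those annotated with that symbol alone, which gave 8 of the 10 genes, out of 19938 genes on the array, and each of the 8 had 1 such feature. Efemp2 was not matched to a feature, and the feature that carries Loxl2 also carries a second symbol, so neither is analysed here.

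Mkl2, now called Mrtfb, encodes a myocardin-related transcription factor that works with serum response factor (SRF). The series addresses TGF-beta signalling in stem cells and vessels that lack it. There were 2 wild-type and 3 Mkl2-/- samples, each total RNA from an independent culture of C57BL/6 embryonic stem cells. All were kept on gelatin and mouse fibroblast feeders in serum with leukaemia inhibitory factor, and feeders were removed by letting them attach for 1 h. The labels do not say how the allele was made or whether a genotype rests on more than 1 cell line, and the p-values hold for cultures only.

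Elastic fibres give arteries, lung and skin their recoil. Tropoelastin is deposited on a scaffold of fibrillin microfibrils, which carry small glycoproteins such as MAGP-1 (Mfap2) and elastin-binding proteins such as emilin-1. The short fibulins are Efemp1, Efemp2 and Fbln5, also called fibulins 3, 4 and 5. Of these, fibulins 4 and 5 help bring elastin and the crosslinking lysyl oxidases together. The larger fibulins 1 and 2 also sit in basement membranes. Latent TGF-beta binding proteins attach to the same microfibrils, which places TGF-beta storage and elastic matrix on shared structures.

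All values are the deposited log2 expression values, with differences taken as Mkl2-/- minus wild type. Over all genes, Pearson correlations were 0.998 to 0.999 within groups and 0.992 to 0.994 between groups. To 2 decimals, 27.5% and 26.5% of genes had the same value in wild-type replicate 1 as in Mkl2-/- replicates 1 and 2, and 19.4% the same value as in wild-type replicate 2. All 3 Mkl2 features were lower on the Mkl2-/- arrays. Feature 10433656, with the largest difference, read 9.76 and 9.92 on the wild-type arrays and 8.99, 8.89 and 8.71 on the Mkl2-/- arrays. Its difference was -0.98 ± 0.11 (SE, limma adjusted p over all features = 0.0309). The feature used for the gene, the brightest of the 3, differed by -0.53. Its limma adjusted p was 0.048 over all genes and 0.067 over all features. Without the position of the features relative to the deleted part, this is no check of the deletion. All 10 embryonic stem cell markers lay above background on every array, but their levels were not equal in both groups: by limma's adjusted p 1 fell (Nanog, -1.14), 3 rose (Dppa4, 0.74; Dppa5a, 0.49; Utf1, 0.39) and 6, among them Pou5f1 and Sox2, did not pass. Of all genes, 6.28% passed as lower and 2.99% as higher. Background was 7.30, the 95th percentile of 1027 olfactory receptor genes. Of 26 fibroblast markers, 19 lay above background on every array and 7 on none, among them the defining markers Postn and Lum. The other 8 of the 10 defining markers lay above background on every array. With 5 arrays in all, precision is limited by their number.

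The genes that fell here were Efemp1 and Fbln1, and the upstream sequences of these genes are shown because Mkl2 acts through SRF, whose binding motif is the CArG box. Fbln2 is added as a fibulin with the same kind of match whose level did not pass the test. Each line gives the 250 bases before an annotated start, 5′ to 3′ in the direction of transcription, from RefSeq with build GRCm38.p6. All lie on the plus strand, and capitals mark the motif matches described after the sequences. The windows are chr11:28852955-28853204 for Efemp1, chr15:85205699-85205948 for the first of the 2 Fbln1 starts and chr6:91212514-91212763 for Fbln2.
Efemp1: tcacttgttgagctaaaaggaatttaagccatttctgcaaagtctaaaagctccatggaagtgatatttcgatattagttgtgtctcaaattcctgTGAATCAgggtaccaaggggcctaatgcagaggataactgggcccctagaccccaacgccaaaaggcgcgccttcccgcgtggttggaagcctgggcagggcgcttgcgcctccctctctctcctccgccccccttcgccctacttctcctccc
Fbln1: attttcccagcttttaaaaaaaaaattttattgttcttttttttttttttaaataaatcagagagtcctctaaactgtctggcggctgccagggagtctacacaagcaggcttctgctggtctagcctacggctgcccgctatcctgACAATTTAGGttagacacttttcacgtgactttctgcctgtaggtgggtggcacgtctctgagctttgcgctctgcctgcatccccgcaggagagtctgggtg
Fbln2: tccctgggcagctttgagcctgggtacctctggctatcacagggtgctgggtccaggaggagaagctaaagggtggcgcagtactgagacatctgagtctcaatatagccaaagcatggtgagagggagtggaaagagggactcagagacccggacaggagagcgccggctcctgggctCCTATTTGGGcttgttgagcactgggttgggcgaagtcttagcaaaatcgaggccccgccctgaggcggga

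The searches covered the CArG box, the CArG box with exactly 1 mismatch, TGANTCA (the AP-1 motif bound by Fos and Jun proteins) and GGAATG (the motif of TEAD factors), on both strands. No window of the 6 measured genes with an entry (9 starts in all) held a full CArG box, which stands in 1.47% of the 32851 upstream windows in the table. Both Fbln1 starts share a CArG box with 1 mismatch, 103 to 94 bases before the first start, and Fbln2 holds one 71 to 62 bases before its start. Such a match stands in 17.5% of all windows. Efemp1 holds TGANTCA 154 to 148 bases before its start, which 6.75% of all windows also have, and Mfap2 holds GGAATG 176 to 171 bases before its first start, as do 12.6% of windows. A match is only a description of these letters. No overlap between matches of different motifs occurred in the printed windows.

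The fibulin genes Efemp1 and Fbln1 fell in Mkl2-/- cells, Efemp1 by 3.51-fold and Fbln1 by 1.33-fold, and none of the 8 genes rose. The other 6 genes, among them elastin itself, did not pass an adjusted p of 0.05 in limma's test with Benjamini-Hochberg adjustment. This count of 2 of 8 stands beside 9.27% of all 19938 genes passing in either direction, 6.28% as lower and 2.99% as higher. Among the 13564 genes with a mean above background, 8.78% passed as lower. At an unadjusted limma p under 0.05, 3 of the 8 genes were lower and 0 higher, beside 2554 lower and 2024 higher of all 19938 genes. The arrays of both groups did not overlap for 4 of the 8 genes (Efemp1, Fbln1, Mfap2 and Lox), all with the lower values in Mkl2-/-, against 33.6% of all genes in either direction, 16.7% as lower and 16.9% as higher. All 8 genes lay above background. Of the 13564 genes with a mean above background, 5826 had groups that did not overlap, 3077 of them lower in Mkl2-/-. At an unadjusted limma p under 0.05, 2394 of these 13564 genes were lower and 1784 higher. The median difference of the 8 genes was -0.13, against 0.02 over all genes. The genes were chosen with earlier results of these data known, so these counts describe the set and test nothing about it.

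**Figure D1:**
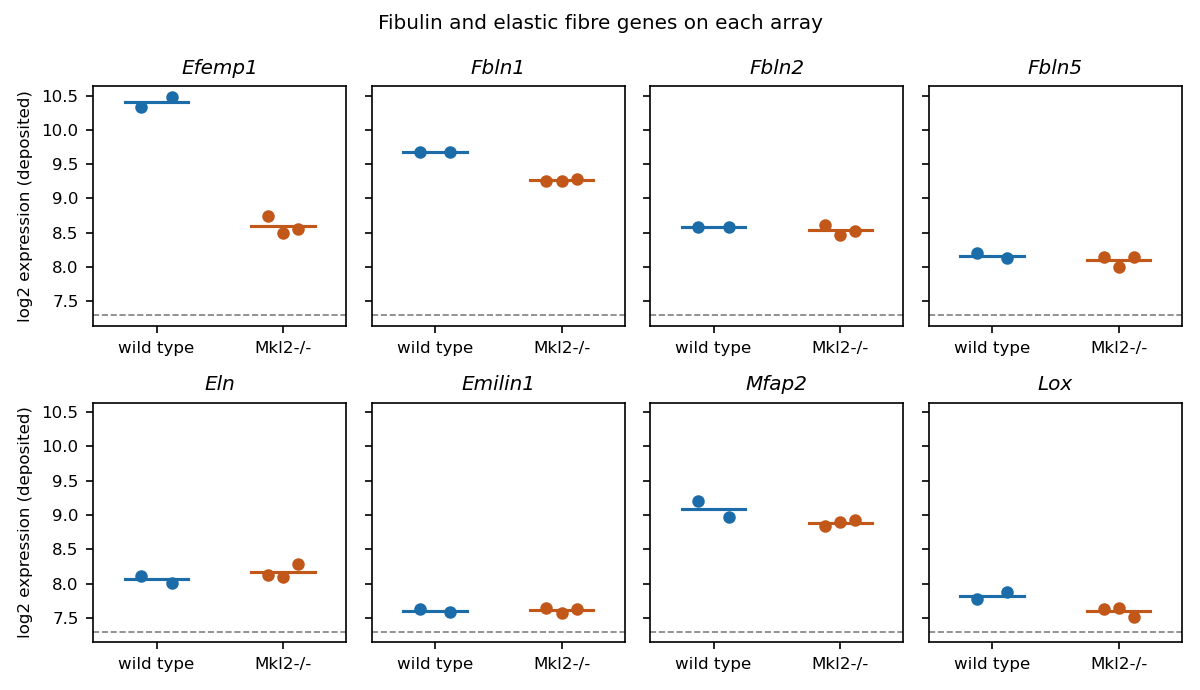
Deposited log2 expression of the 8 measured genes, 1 point per array, with wild type in blue (2 arrays) and Mkl2-/- in orange (3 arrays). Short lines are group means and the dashed line is the background level of 7.30; Efemp1 and Fbln1 show a gap of 1.6 and 0.40 between the groups, and all points lie above background.

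Efemp1 encodes fibulin-3, a secreted glycoprotein of elastic tissues and of the membrane beneath the retina. Its feature (10374777) read 10.34 and 10.48 in the wild-type cultures and 8.74, 8.49 and 8.56 in the Mkl2-/- cultures. Every Mkl2-/- array lay at least 1.6 below the lower wild-type array, and all 5 stayed above background. The means were 10.41 ± 0.10 (SD, n = 2) and 8.60 ± 0.13 (SD, n = 3). Their difference was -1.81 ± 0.10 (SE; limma adjusted p = 0.0079), with a 95% interval from -2.08 to -1.54. Among all 19938 genes this was the fall of rank 13 by size. The call was lost without wild-type replicate 2 (limma adjusted p = 0.067), as were all calls of the array, and without Mkl2-/- replicate 3 (limma adjusted p = 0.051). With single arrays left out, the difference itself stayed between -1.89 and -1.74. RNA of a whole culture was measured, so fewer cells expressing a gene and less RNA per cell cannot be told apart.

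Fbln1 encodes fibulin-1, a basement membrane and blood protein that binds fibronectin and laminin. Its feature (10425945) read 9.68 on both wild-type arrays and 9.25, 9.26 and 9.28 on the Mkl2-/- arrays. The groups were separated by 0.40, which is far wider than the spread of 0.015 (SD, n = 3) among the Mkl2-/- cultures. The difference was -0.42 ± 0.014 (SE; limma adjusted p = 0.0058; 95% interval from -0.46 to -0.38). The small error rests in part on 2 wild-type values that are equal to 2 decimals. With normalization by quantiles or cyclic loess on top of the deposited values, the error was 0.034 and 0.031 and the difference -0.37 and -0.41. Of the fits that left out 1 array, only the one without wild-type replicate 2 lost the call (limma adjusted p = 0.058).

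The limma intervals of the Efemp1 and Fbln1 differences do not meet. The difference between these falls was not tested.

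The other measured fibulins, Fbln5 and Fbln2, did not pass the test. Fbln5 encodes fibulin-5, a short fibulin that binds elastin and integrins. It read 8.20 and 8.13 on the wild-type arrays and 8.15, 8.0 and 8.15 on the Mkl2-/- arrays, so that 2 of the 3 Mkl2-/- values lay between the wild-type values. Its difference was -0.06 ± 0.06 (SE; limma adjusted p = 0.53; 95% interval from -0.24 to 0.11). Fbln2 encodes fibulin-2, a large fibulin of basement membranes and vessel walls. It read 8.59 on both wild-type arrays and 8.61, 8.47 and 8.53 in Mkl2-/-, and the groups overlap. Its difference was -0.05 ± 0.05 (SE; limma adjusted p = 0.50; 95% interval from -0.19 to 0.08). In the deposited values, both intervals leave out a fall of the size of Fbln1 or Efemp1. Whether the Fbln5 and Fbln2 features would register such a fall in RNA was not tested. The sign of the Fbln5 difference turned under 1 of 14 alternative settings and that of Fbln2 under 1 of 15; in both this was the fit with the fibroblast marker mean as a covariate.

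**Figure D2:**
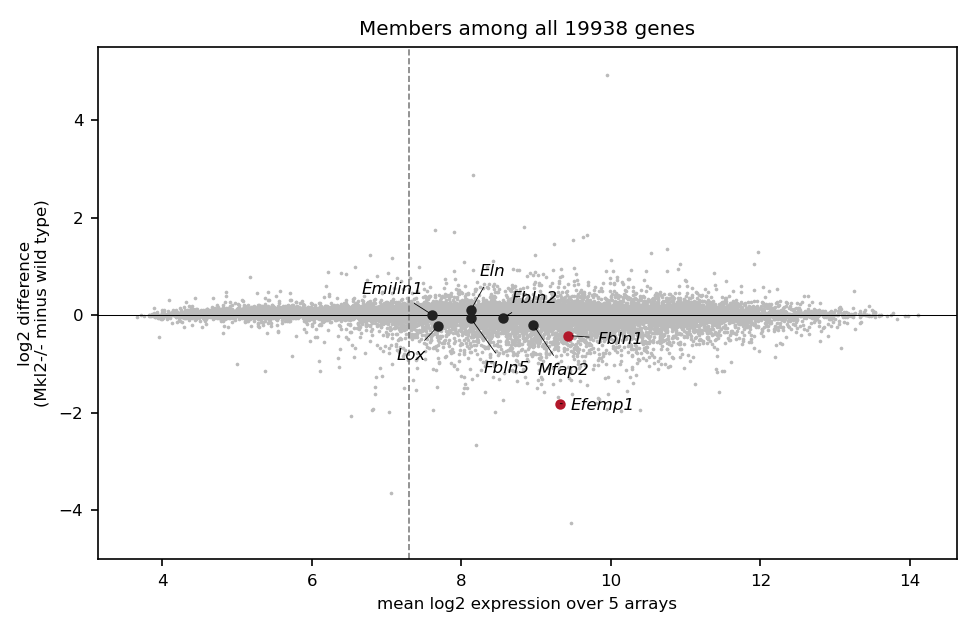
Mean log2 expression over the 5 arrays (horizontal) against the log2 difference, Mkl2-/- minus wild type (vertical), for all 19938 genes in grey. Labelled points are the 8 measured fibulin and elastic fibre genes, red where limma's adjusted p was under 0.05; Efemp1 lies at -1.81, apart from the band of most genes, and the dashed line is the background level of 7.30.

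Elastin, the core protein of the fibre, was measured at 8.11 and 8.01 on the wild-type arrays and at 8.13, 8.10 and 8.29 on the Mkl2-/- arrays. The groups overlap by 0.01, with Mkl2-/- replicate 3 the highest array. The difference was 0.11 ± 0.08 (SE, limma adjusted p = 0.40, 95% interval from -0.10 to 0.32). In the deposited values, a fall of the size seen in Fbln1 lies outside the interval. Whether the Eln feature would register such a fall in RNA at this level was not tested. Emilin1 encodes emilin-1, a glycoprotein at the border of elastin and microfibrils that also restrains TGF-beta maturation. It read 7.63 and 7.58 on the wild-type arrays and 7.64, 7.57 and 7.63 on the Mkl2-/- arrays, close above background on every array. Its difference was 0.01 ± 0.03 (SE; limma adjusted p = 0.88; 95% interval from -0.08 to 0.10). The difference was 0 or below under 6 of 14 alternatives. RMA can compress differences of dim features, which was not tested for Emilin1.

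Mfap2 and Lox were lower on every Mkl2-/- array, without passing the test. Mfap2 encodes MAGP-1, which binds fibrillins and TGF-beta family proteins. It read 9.20 and 8.97 on the wild-type arrays and 8.84, 8.89 and 8.92 on the Mkl2-/- arrays. Only 0.05 separated the groups, and the wild-type cultures differed from each other by more than that. The difference was -0.20 ± 0.08 (SE; limma adjusted p = 0.27; 95% interval from -0.43 to 0.02), and it was -0.09 without wild-type replicate 1 and -0.32 without wild-type replicate 2. Lox encodes lysyl oxidase, the copper enzyme that crosslinks elastin and collagen. It read 7.77 and 7.87 on the wild-type arrays and 7.63, 7.64 and 7.51 on the Mkl2-/- arrays, with a gap of 0.13. Its difference was -0.23 ± 0.06 (SE; limma adjusted p = 0.115, unadjusted p = 0.0188), and with single arrays left out it lay between -0.28 and -0.18.

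Of 28 other genes of the elastic fibre, listed by role and not by their values here, 27 were measured. Bmp1 was the 1 gene that fell, 0 rose and 26 did not pass limma's adjusted test. This is 1 of 27 beside the 9.27% of all genes. At an unadjusted limma p under 0.05 there were 6 lower and 2 higher genes, beside 2554 lower and 2024 higher of all 19938 genes. The median difference of the 27 genes was -0.01, their differences ran from -0.35 to 0.40, and none moved as far as Efemp1. Ltbp4 moved further than Fbln1 in some alternative fits, for example by 0.44 against -0.37 after quantile normalization. The count rose to 6 after quantile normalization and to 5 with cyclic loess, and was 0 with any single array left out.

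Among 6 genes around the lysyl oxidases, Bmp1 fell and 5 did not pass the test. Bmp1 encodes a metalloproteinase that releases active lysyl oxidase from its precursor. It read 10.21 and 10.19 on the wild-type arrays and 9.78, 9.90 and 9.86 on the Mkl2-/- arrays, with no overlap. The difference was -0.35 ± 0.04 (SE; limma adjusted p = 0.024; 1.28-fold), and the adjusted p lay between 0.052 and 0.13 with single arrays left out. The lysyl oxidase relative Loxl4 read 8.26 and 8.18 against 7.84, 7.99 and 7.98, a difference of -0.28 ± 0.06 (SE; limma adjusted p = 0.081). All 6 differences of this role were below 0, as were those of 36.2% of all genes. Of the 13564 genes with a mean above background, 5897 had a difference below 0. For Loxl1 the difference was only -0.005, and its sign turned after quantile normalization, as did that of Loxl3 with the fibroblast marker covariate.

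The latent TGF-beta binding proteins, which tether TGF-beta to microfibrils, differed in sign. Ltbp4, which also binds fibulins 4 and 5 in elastic fibre assembly, read 10.21 and 10.10 on the wild-type arrays and 10.62, 10.60 and 10.44 on the Mkl2-/- arrays. Its groups do not overlap, and the difference was 0.40 ± 0.07 (SE; limma adjusted p = 0.060). Ltbp1 read 8.95 and 8.85 against 8.64, 8.60 and 8.43, also with no overlap, and its difference was -0.34 ± 0.08 (SE; limma adjusted p = 0.095). Both kept their sign under all 15 alternatives run, and both passed the test after quantile normalization, as well as with cyclic loess. Ltbp3 differed by 0.18 ± 0.09 (SE; limma adjusted p = 0.34), with overlapping groups.

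**Figure D3:**
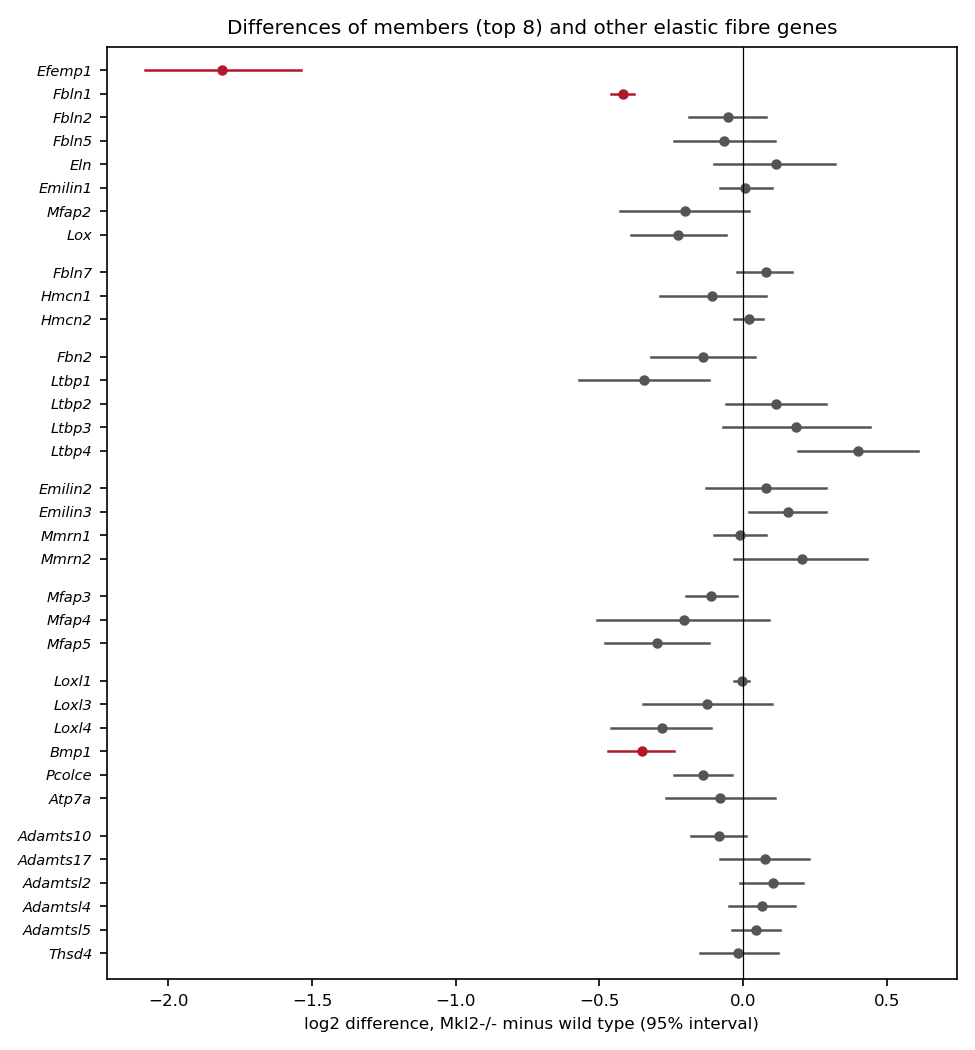
Log2 differences, Mkl2-/- minus wild type, with 95% intervals from limma for the 8 measured genes of the set (top) and 27 other elastic fibre genes in blocks by role. Red marks a limma adjusted p under 0.05; Efemp1 at -1.81 lies far to the left of the other genes, which all lie between -0.42 and 0.40.

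Among the remaining microfibril genes, Mfap5, which encodes MAGP-2, read 7.42 and 7.59 on the wild-type arrays and 7.17, 7.19 and 7.26 on the Mkl2-/- arrays. The Mkl2-/- values lay below the background level and the wild-type values above it, so no fold is given; the log2 difference was -0.30 ± 0.06 (SE; limma adjusted p = 0.08). Mfap4, an integrin-binding protein of elastic fibres, differed by -0.21 ± 0.11 (SE; limma adjusted p = 0.37). All 3 microfibril-associated genes of the list had lower values on every Mkl2-/- array, as did 16.7% of all genes, and none passed the test. Of the 13564 genes with a mean above background, 3077 had lower values on every Mkl2-/- array. Mfap4 read 8.25 and 7.95 against 7.93, 7.93 and 7.82, so its groups were closer to each other than its wild-type arrays were. Mmrn2, a relative of emilin-1 in the vessel wall, differed by 0.20 ± 0.08 (SE; limma adjusted p = 0.27). In this role 3 of 4 differences were above 0, as were those of 11796 of all 19938 genes.

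The measured genes lie on 7 chromosomes, and only Eln and Emilin1 share one, chromosome 5. Each gene was set beside its 12 neighbours on either side in the RefSeq order of GRCm38.p6. Only genes with a mean above background counted as neighbours, a level that 13564 of the 19938 genes passed. Neighbours of Efemp1 on chromosome 11 had a median difference of -0.05, with 3 of 24 lower and 1 higher by limma's adjusted p, and none moved as far as Efemp1; the extremes were -0.79 and 0.45. Neighbours of Fbln1 on chromosome 15 had a median of -0.007, with 1 of 24 lower and 0 higher. Fbln2, on chromosome 6, stood among genes that fell: 11 of its 24 neighbours passed as lower and 0 as higher, with a median of -0.39. The next such neighbour on one side, Chchd4, differed by -0.54 and the one after it, Tmem43, by -0.99. Fbln2 differed by -0.05 and its nearest neighbour on the other side, Hdac11, by -0.05. Around the other 5 genes the neighbours' medians lay between -0.019 and 0.065. Among all genes with a mean above background, 8.78% passed as lower.

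**Figure D4:**
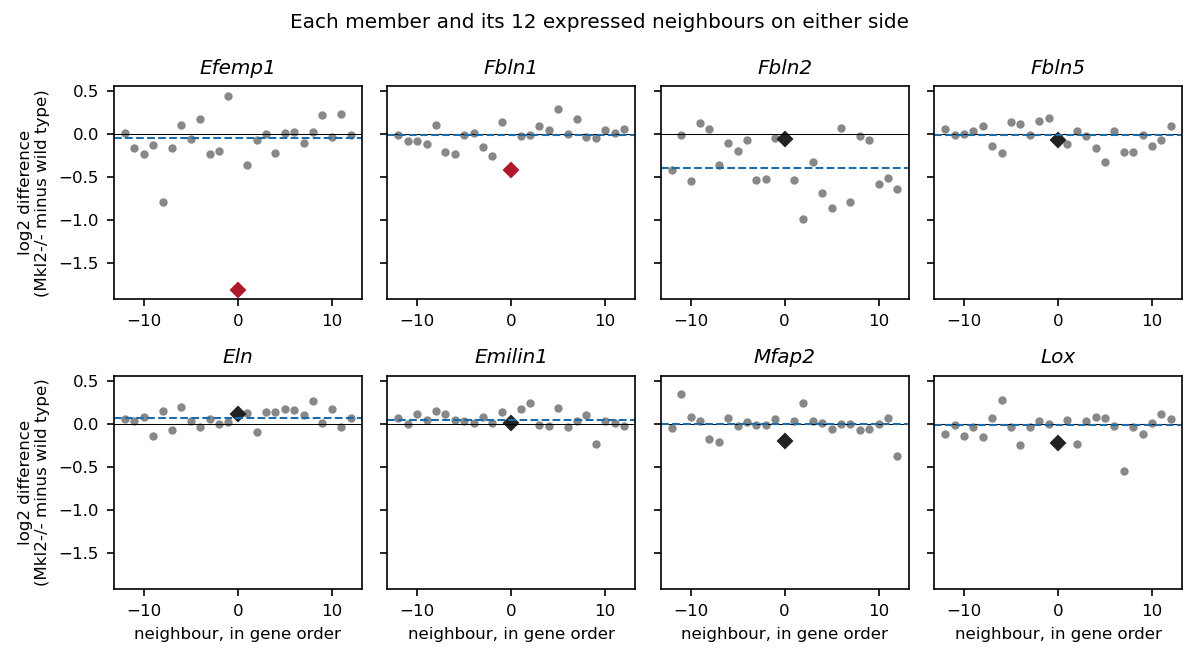
Log2 differences, Mkl2-/- minus wild type, of each measured gene (diamond at position 0, red where limma's adjusted p was under 0.05). Grey points are the 12 neighbours with a mean above background on either side, in gene order. The dashed line is the neighbours' median; it is -0.39 around Fbln2 and between -0.05 and 0.065 around the other 7 genes.

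Feeder fibroblasts make many of these proteins, so fibroblast markers are set beside the results. Of 26 markers, 3 fell (Mmp2, Sparc and Pdgfrb), 1 rose (Twist1) and 22 did not pass limma's adjusted test, with a median difference of -0.05. The mean over the 26 markers was 8.0 and 7.99 on the wild-type arrays and 7.94, 7.90 and 7.95 on the Mkl2-/- arrays, which is lower on all 3. Among the 10 defining markers, Col1a1 differed by -0.29 ± 0.07 (SE; limma adjusted p = 0.09), Pdgfrb fell by 0.28 on the log2 scale and Twist1 rose by 0.31. Postn and Lum lay between 5.15 and 6.26 on every array, below background, and the other 8 defining markers lay above background on every array. No marker of the list moved as far as Efemp1, the largest difference being -0.32 (Vim). With the marker mean as a covariate, Efemp1 differed by -1.68 ± 0.21 and Fbln1 by -0.40 ± 0.03 (SE). In that fit, with 2 residual degrees of freedom, 0 of all genes passed limma's adjusted p of 0.05 and 3309 had an unadjusted p under 0.05. Smooth muscle markers moved further: 6 of 8 fell and 0 rose (6 lower and 0 higher at an unadjusted p under 0.05, limma), with a median of -0.85. Of 12 extraembryonic endoderm markers, 3 rose (Gata4, Gata6 and Lamb1) and 1 fell (Sparc, which is also counted among the fibroblast markers). Beside these counts of the marker lists, 6.28% of all genes passed limma's adjusted test as lower and 2.99% as higher. Among genes with a mean above background, 8.78% passed as lower. The covariate was the fibroblast marker mean alone, which goes with genotype here, so feeder RNA and genotype cannot be told apart. The part of the fibroblast, smooth muscle and extraembryonic endoderm shifts in the falls of Efemp1 and Fbln1 was not tested.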

How the data were processed

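RNA of 5 cultures was hybridised to Affymetrix whole-transcript arrays. The deposited values are log2 expression made by the authors with RMA (background correction, quantile normalization, probe summary) as run by Affymetrix Expression Console 1.1 (from the submitters' processing notes); other settings and scan dates were not stated, and no coordinates are given for array features. Of 35556 features, 21789 carried 1 symbol; the brightest feature per gene gave 19938 genes. The genotypes were compared by limma 3.58.1 (lmFit, then eBayes; R 4.3.3) over all genes (3 residual and 0.885 prior degrees of freedom), with Benjamini-Hochberg adjustment over all genes. Tests are two-sided. The fit was tested on simulated data: of 50 genes changed at each fold, among 19938 genes with independent noise, it recovered 52% for 1.25-fold changes, 80% for 1.5-fold, 96% for 2-fold and all for 4-fold. Genes and lists were chosen with earlier results of these data known. By the naming rule, the text names all members. Of the other elastic fibre genes it names those past the threshold and the 8 with the largest differences above background. Loxl1 and Loxl3 are named outside this rule. Motifs, neighbours, other markers and Hmcn1 were chosen after values were seen. Alternatives were quantile normalization, cyclic loess, leaving out dim genes at either of 2 levels, a robust eBayes with trend, weighted arrays, averaged features, a test of all features, the replicate block, a fibroblast covariate, and each array left out. Figures were drawn with matplotlib 3.10.9.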

Additional observations from a re-analysis of the deposited data

How the results depend on the processing

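Both falls kept their direction in all 15 alternative fits; Efemp1 passed in 11 and Fbln1 in 12 of them. The count of members past the threshold was 0 with the replicate block and 0 with the fibroblast marker covariate, fits with 1 and 2 residual degrees of freedom in which 0 of all genes passed, and ranged from 0 to 2 with single arrays left out. Same-numbered arrays gave correlations of their deviations from the group means of -0.201 and 0.191. With 2 wild-type arrays these deviations mirror each other, so the correlations cannot decide whether the numbers are pairs. The main fit took no pairs. The count of other elastic fibre genes (1) was 6 after quantile normalization, 5 with cyclic loess, 2 among genes above background, 3 among genes above the median gene, 2 with array weights, 2 with the mean of all features, 0 with the replicate block, 0 with the covariate and 0 in each fit without 1 array; beyond those fits' fewer genes or arrays, the cause was not tested. Over all genes, 1848 calls (596 higher, 1252 lower) became 3234 (1483 higher, 1751 lower) after quantile normalization and 2982 with cyclic loess, and with single arrays left out 963, 0, 333, 403 and 448 (without wild-type replicates 1 and 2 and Mkl2-/- replicates 1, 2 and 3); without wild-type replicate 1 the split was 473 higher and 490 lower. Features near background, such as Emilin1 and Lox, limit what can be seen of small changes.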

Other observations

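Hmcn1 encodes hemicentin-1, a very large relative of the fibulins (also called fibulin-6) found at basement membranes. It was represented by 77 features of 1 symbol, and its result depended on which of them was read. The brightest feature, used by the rule for a gene, read 8.31 and 8.18 on the wild-type arrays and 8.18, 8.05 and 8.18 on the Mkl2-/- arrays, a difference of -0.11 with overlapping groups (limma adjusted p = 0.39). With the mean of all 77 features the difference was -0.29 (limma adjusted p = 0.014). Of the 77 features, 76 had a difference below 0 (39.2% of all 35556 features), and 51 had lower values on every Mkl2-/- array than on either wild-type array (15.8% of all features). In limma's fit of all features, 9 passed an adjusted p of 0.05 as lower and 0 as higher, against 3.58% and 1.77% of all features. Most of the features were dim: 22 had a mean above the background level, and 21 of those 22 had a difference below 0, with a median of -0.16. The 9 features that passed also lay mostly below background, for example 10358535 with a mean of 5.95 and 10358652 with a mean of 5.99. Features of 1 gene share its RNA and are not replicates. Hmcn1 lies on chromosome 1, whose 758 genes above background had a median difference of -0.17. Hmcn1 was singled out after its values were seen.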
